A study of Mus musculus with 2 samples.

Results

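Chromosomes 8 and 12 stood apart from the other 17 autosomes in lists of nucleosomes called from MNase-seq of mouse embryonic stem (ES) cells. The calls described here are all those on chromosome 8 or 12 (build mm9) in either list, 452715 of 2724853 calls. The ethanol list held 117771 calls on chromosome 8 and 98951 on chromosome 12 of its 1300009, and the tamoxifen list 127110 and 108883 of its 1424844. The 2 chromosomes were chosen by the call density and scores in these same lists, so density and score are given as descriptions, with no test. All cells were ES cells with floxed Brg1 alleles (Brg1fl/fl) and an Actin-CreER transgene, grown in serum and LIF on gelatin. Brg1 is the ATPase of the esBAF remodeling complex, and CreER is a recombinase that tamoxifen activates. Tamoxifen (0.8 µM) or its vehicle, ethanol, was present over 24 hours, and 48 hours in plain medium followed. Chromatin was digested with micrococcal nuclease, and mononucleosome DNA of the 12 U digest was sequenced, 1 library per group. With 1 library per group, differences between the groups have no replicate check. Loss of Brg1 after tamoxifen was not analysed here. All intervals are 95% and cover counting error only.

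Micrococcal nuclease cuts the linker DNA between nucleosomes, and a nucleosome is called where protected fragments pile up. Only calls that passed the authors' cutoffs are listed, so a stretch with more sequenced fragments yields more calls and, in general, stronger ones. Mouse chromosomes are acrocentric, with the centromere at the proximal end. Cultured mouse ES cells are known to gain whole chromosomes, and chromosome 8 is among those gained most often. The number of copies of chromosomes 8 and 12 in these cells was not measured here. Genes along them were not analysed, since no annotation of mm9 was used.

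Calls were dense over most of both chromosomes and in both libraries. Bins of 1 Mb were used where they lay wholly within the called range and held calls, which left 127 of 131 bins on chromosome 8, 118 of 121 on chromosome 12 and 2153 of 2211 on the other autosomes. The bins without calls were the first 3 Mb of both chromosomes, which were empty on every other autosome too, and, on chromosome 8, the bin starting at 21 Mb. On chromosome 8 the ethanol library had 82 to 2467 calls per bin with a median of 874, and the tamoxifen library 88 to 2504 with a median of 960. On chromosome 12 the bins ran from 186 to 2359 calls with a median of 783.5 in the ethanol library, and from 210 to 2408 with a median of 898 in the tamoxifen library. Bins of the other autosomes had medians of 426 and 484 calls and reached 1655 and 1717.

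The median bin of chromosome 8 thus held 2.05 times the calls of the median bin elsewhere with ethanol and 1.98 times with tamoxifen. For chromosome 12 the ratio was 1.84 and 1.86. The nearest autosome outside the pair, chromosome 11, stood at 1.63 and 1.58, and its median bin held 696.5 and 765.5 calls. Of the bins on chromosome 8, 59.8% (76 of 127) reached 1.5 times the median bin of the other autosomes with ethanol, and on chromosome 12, 58.5% (69 of 118). The background share over the other autosomes was 31.4% with ethanol and 29.9% with tamoxifen, and 55.1% of the bins of chromosome 11 passed with ethanol. With tamoxifen 77 bins of chromosome 8 and 69 of chromosome 12 passed. At 2-fold, 54.3% of the bins of chromosome 8 and 46.6% of chromosome 12 passed with ethanol against 16.5% elsewhere, and with tamoxifen 48.0% of chromosome 8 and 44.9% of chromosome 12 passed against 13.5%. A share of bins past 1.5-fold therefore hardly sets either chromosome apart from chromosome 11. The upper range did so: 17 bins of chromosome 8 and 8 of chromosome 12 were denser than any bin of the other 17 autosomes, in both libraries.

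The excess was present in sparse as well as dense bins, most evenly on chromosome 8. When bins were ranked from sparse to dense within a chromosome and set against the same percentile of the other autosomes, chromosome 8 held 1.79 times the calls at the 5th percentile, 1.81 at the 25th, 1.86 at the 75th and 1.72 at the 95th, with ethanol. With tamoxifen the 4 ratios were 1.76, 1.77, 1.84 and 1.74. On chromosome 12 the ratio fell from 2.23 at the 5th percentile to 1.82 at the 25th, 1.70 at the 75th and 1.480 at the 95th with ethanol, and ran from 2.09 to 1.5 with tamoxifen. Chromosome 12 was therefore highest, against the rest, in its sparse bins, and chromosome 8 in its middle ones. Chromosome 11 reached 1.91 at the 25th percentile, above both chromosomes, but the other autosomes reached at most 1.30 at the 75th and 1.16 at the 95th percentile with ethanol. At the sparse end, no bin of chromosome 12 and 3 bins of chromosome 8 lay below the 10th percentile of the other autosomes, in either library. This was not particular to the pair. The poorest bin of chromosome 19 held 109 calls with ethanol and 131 with tamoxifen, and the 10th percentiles were 111.2 and 130.2. At the 10th percentile chromosome 19 was the highest of the other autosomes with ethanol, with a ratio of 1.67 against 1.83 on chromosome 8.

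**Figure D1:**
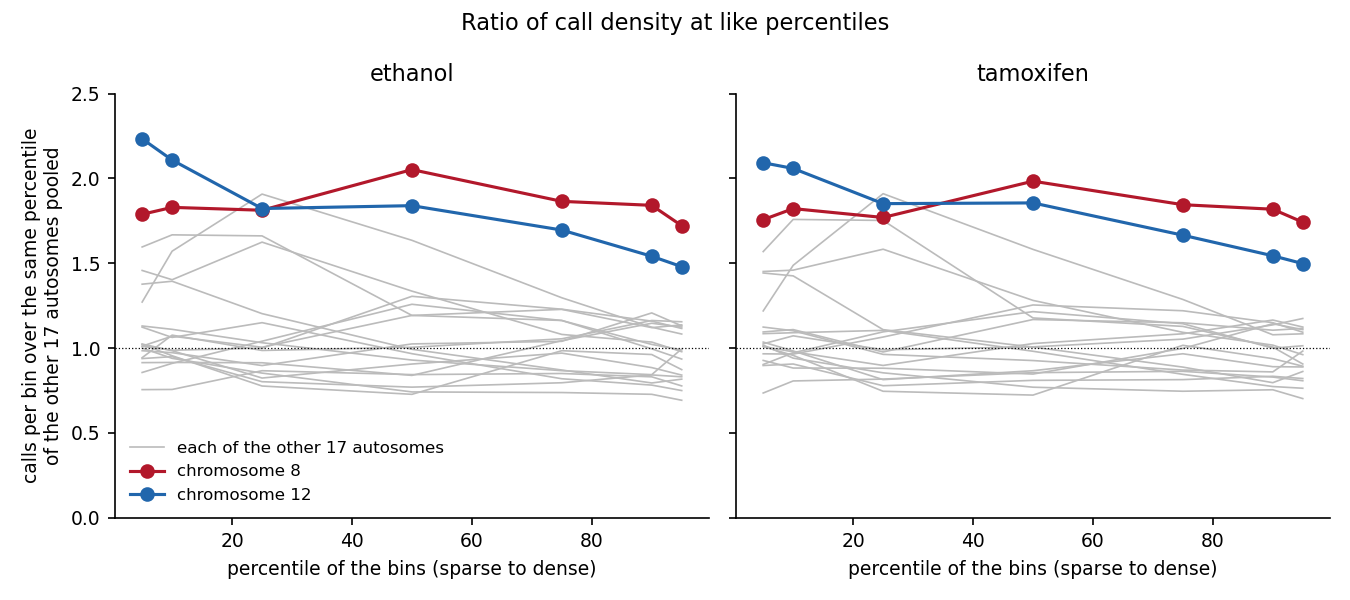
Calls per 1 Mb bin at 7 percentiles of the bins of a chromosome, over the same percentile of the other 17 autosomes pooled (vertical axis), for each library. The line of chromosome 8 stays between 1.72 and 2.05 with ethanol, that of chromosome 12 falls from 2.23 to 1.480, and grey lines are the other 17 autosomes one by one.

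Along each chromosome the calls alternated between dense and sparse domains, and the borders recurred in the other library. Fitting stretches of constant log2 call density gave 11 segments on chromosome 8 and 8 on chromosome 12 in each library. The other autosomes had 3 to 15 segments with ethanol, a median of 0.77 segments per 10 bins, against 0.87 on chromosome 8 and 0.68 on chromosome 12. Both chromosomes thus lay within the range of the others, 0.34 to 1.09. Of the borders found with ethanol, 9 of 10 on chromosome 8 and 7 of 7 on chromosome 12 were found at the same bin with tamoxifen. The remaining border on chromosome 8 was 1 bin away. Such recurrence was common elsewhere too, with 14 of 14 on chromosome 2 and 11 of 11 on chromosome 11. It was lower on others, such as 7 of 11 on chromosome 10 and 5 of 9 on chromosome 17. The same fit to log2 bin median scores gave 8 of 8 recurring borders on chromosome 8 but 3 of 7 on chromosome 12, against 6 of 9 on chromosome 11.

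The densest segments on chromosome 8 spanned 8000001 to 16000000 and 106000001 to 131000000, with medians of 3.51 and 3.44 times the median bin of the other autosomes (ethanol). Sparse segments lay at 51000001 to 58000000 (0.41) and 99000001 to 106000000 (0.46). The proximal end was mixed, with 1291 and 825 ethanol calls in its first 2 bins used and 205 to 272 in the next 3. On chromosome 12 the densest segment ran from 99000001 to 115000000 (3.59), and the sparse ones covered 37000001 to 52000000 (0.69), 61000001 to 70000000 (0.56) and 90000001 to 99000000 (0.55). Segments at or above the median bin of the other autosomes numbered 8 of 11 on chromosome 8 and 5 of 8 on chromosome 12, against 76 of 160 elsewhere. No segment on either chromosome was as sparse as the sparsest elsewhere, at 0.15.

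No single border divided a raised from an unraised portion of either chromosome. Comparing the median of 10 bins on either side of each border, the largest step in log2 call density on chromosome 8 was -2.64 at 95000000, from a median of 1342.5 calls to 214.5, with ethanol, and -2.57 at the same border with tamoxifen. With 20 bins on either side the direction turned, since the largest step was then a rise of 1.76 with ethanol and 1.73 with tamoxifen. The 10-bin windows place the step ahead of the fall itself, since bins stayed dense up to 99000000, where calls went from 983 to 228. On chromosome 12 it was 2.48 at 100000000 with ethanol and 2.35 with tamoxifen. The largest steps on the other autosomes ran from 1.47 to 3.23 with ethanol, so these ranked 5 and 9 among the 19 autosomes. Steps in the bin median score were, by contrast, among the largest of all autosomes. On chromosome 8 the score step was -0.34 on the log2 scale at 99000000 with ethanol, and on chromosome 12 it was 0.34 at 100000000, against at most 0.26 elsewhere. With tamoxifen the score steps were 0.29, at 106000000, and 0.32, against at most 0.25.

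In successive blocks of 10 bins, 11 of 12 blocks of chromosome 8 and 8 of 11 of chromosome 12 had a median at or above the median bin of the other autosomes, in each library. The background was 49.3% of blocks elsewhere with ethanol and 45.9% with tamoxifen. Chromosome 11 also had 8 of 11 such blocks in each library, and chromosome 9 had 9 of 12 with ethanol and 7 of 12 with tamoxifen, so this count did not set chromosome 12 apart. The lowest block of chromosome 8, from 54000001 to 64000000, had a median of 271.5 calls per bin with ethanol and 297.5 with tamoxifen. On chromosome 12 the lowest block was 43000001 to 53000000, with 286 and 325.5 calls. The highest blocks, at 114000001 to 124000000 on chromosome 8 and 103000001 to 113000000 on chromosome 12, had 1411.5 and 1663 calls per bin with ethanol.

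**Figure D2:**
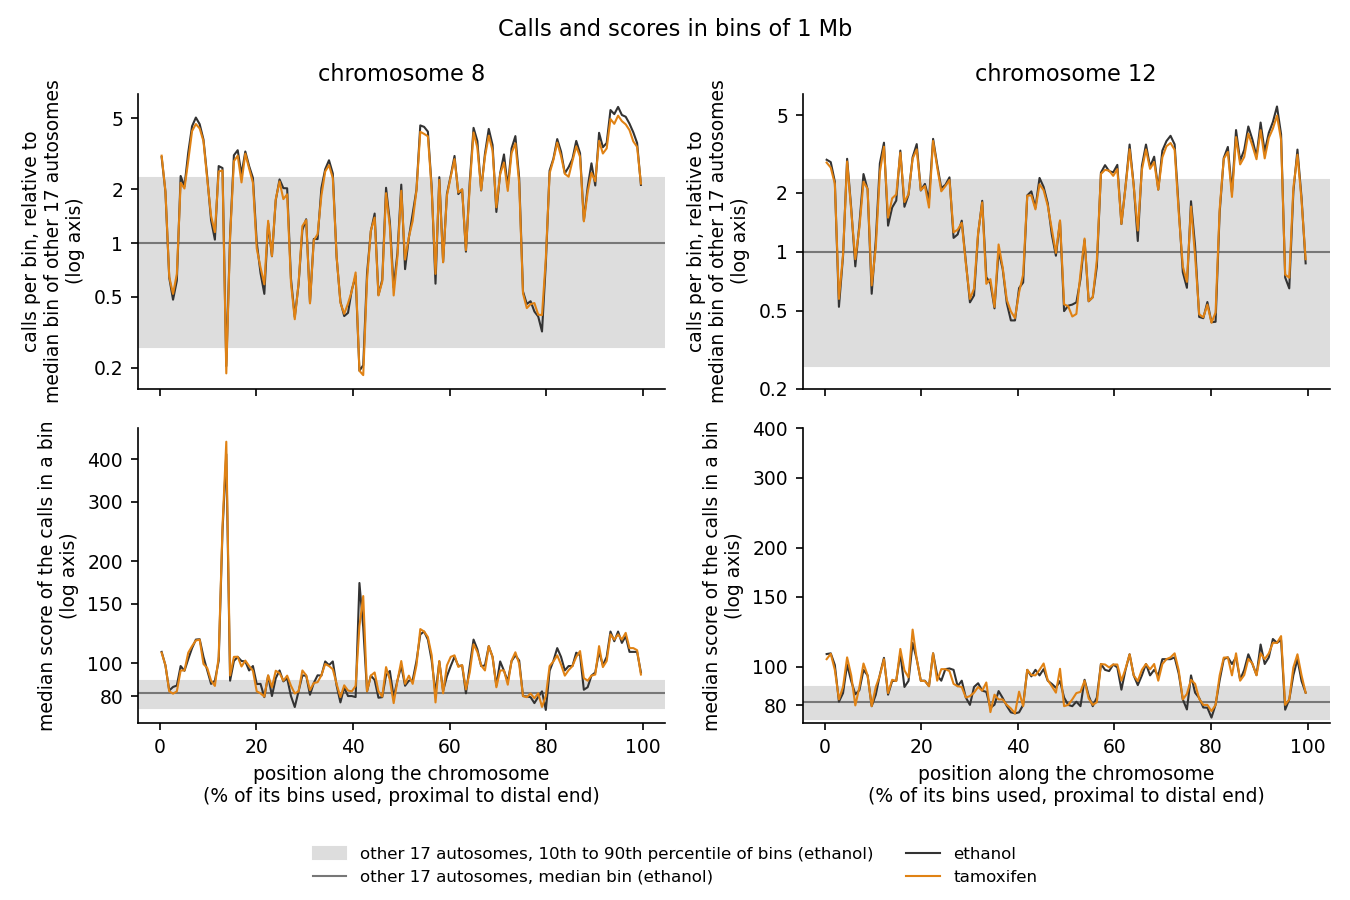
Calls per 1 Mb bin relative to the median bin of the other 17 autosomes (top, log axis) and median score of the calls in each bin (bottom, log axis), along chromosomes 8 and 12 from the proximal to the distal end in percent of the bins used. The 2 libraries overlie each other in most bins, and dense domains alternate with sparse ones that stay above the 10th percentile of the other autosomes (grey band, 10th to 90th percentile) except in 3 bins of chromosome 8.

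Bins that did not share the excess made up less of these chromosomes than of the other autosomes pooled. Below the median bin of the other autosomes in both libraries were 35 of 127 bins on chromosome 8 (27.6%) and 35 of 118 on chromosome 12 (29.7%), against a background of 48.9% elsewhere. Chromosome 11 had as small a share, with 34 of 118 bins (28.8%), and chromosome 9 had 31.4%. The sparse bins fell into 14 runs on chromosome 8, of which the longest were 9 bins from 50000001 to 59000000 and 7 bins from 99000001 to 106000000. On chromosome 12 they formed 13 runs, the longest being 6 bins from 46000001 to 52000000, 5 bins from 61000001 to 66000000 and 5 from 94000001 to 99000000. Medians in these 5 runs lay between 194 and 255.5 calls per bin with ethanol and between 220 and 287.5 with tamoxifen.

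The bins richest in calls lay toward the distal ends. Of 4 consecutive parts of like length, the distal one was also densest on some other autosomes, such as chromosomes 4, 5 and 11, though not on all. On chromosome 8 the richest bins were the 3 adjoining ones from 122000001 to 125000000, with 2370, 2248 and 2467 ethanol calls and 2398, 2253 and 2504 tamoxifen calls. On chromosome 12 the richest bin, 113000001 to 114000000, had 2359 and 2408 calls, followed by 112000001 to 113000000 with 1965 and 2065 and 109000001 to 110000000 with 1952 and 2027. The poorest bins of chromosome 12 were 97000001 to 98000000 with 186 ethanol and 210 tamoxifen calls, 98000001 to 99000000 with 187 and 237, and 48000001 to 49000000 with 190 and 240.

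The poorest bins of chromosome 8 were of another kind, since their few calls scored high. Between 20000001 and 21000000 there were 87 ethanol and 90 tamoxifen calls, with median scores of 413.5 and 450.2. Between 56000001 and 57000000 there were 82 and 93 calls, with median scores of 172.6 and 128.7, and the bin after it had 88 calls in each library and median scores of 127.7 and 157.9. The bin from 19000001 to 20000000 was dense and scored high as well, with 1121 and 1234 calls, median scores of 245.5 and 252.3, and 81 and 89 calls at the maximum score. That single bin held most of the 112 ethanol and 126 tamoxifen maximum-score calls of chromosome 8. Per 1000 calls these were 0.95 and 0.99 on chromosome 8 and 0.13 and 0.10 on chromosome 12. The other autosomes together had 0.48 and 0.47, but chromosome 11 had 2.12 and 2.15, so these calls were not particular to chromosome 8. Chromosome 12 had only 13 and 11 such calls and no bin with a median score of 150 or more, whereas 3 bins of chromosome 8 and 3 of the 2153 bins elsewhere had one, with ethanol.

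Scores were shifted over most of both chromosomes, not only where calls were dense, though in some sparse stretches they came close to those of the other autosomes. The score is the authors' own value per call and is compared here only within a list. The median of the bin median scores was 95.3 on chromosome 8 in each library, and 92.35 with ethanol and 93.35 with tamoxifen on chromosome 12. Single other autosomes had 79.6 to 85.1 (ethanol) and 79.5 to 83.6 (tamoxifen). The 90th percentile of call scores was 255 on chromosome 8 and 237.2 on chromosome 12 with ethanol, against 179.7 to 196.5 on single other autosomes. At the low end the lists converge on their cutoff, with 10th percentiles of 58.2 and 56.8 against 54.7 for the other autosomes together.

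Denser bins had higher scores on all autosomes, so bins of like density were compared. In bins of 800 to under 1200 ethanol calls the median score was 98.2 on chromosome 8 (36 bins) and 95.2 on chromosome 12 (27 bins), against 88 on the other autosomes (337 bins), which ran one by one from 85.95 to 88.9. In bins of 400 to under 800 calls the medians were 89.3 and 90.5 against 82.95. At 200 to under 400 calls they were closer to the rest, with 80.8 and 80.2 against 79.5, and under 200 calls they were 80.8 (11 bins) and 77.8 (6 bins) against 75.2. The tamoxifen library gave 95.5 and 95.1 against 86 at 800 to under 1200 calls, and 81.6 and 80.1 against 77.9 at 200 to under 400 calls. Under 200 tamoxifen calls, chromosome 8 had 86.15 (7 bins) against 74.4, and chromosome 12 had no bin. The difference was thus smallest at 200 to under 400 calls and did not narrow steadily toward the sparse end. The bins of chromosome 8 with few calls of high score lie under 200 calls, and the part they play was not tested. On chromosome 12, with no bin of a median score of 150 or more, the difference under 200 calls was also wider with ethanol.

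Bin by bin, a median score above that of the bins of other autosomes nearest in calls was found in 121 of 127 bins of chromosome 8 and 110 of 118 of chromosome 12 with ethanol, and in 122 and 113 with tamoxifen. The background share, over the bins of the other autosomes, was 46% with ethanol and 45.7% with tamoxifen. The median excess was 1.105-fold on chromosome 8 and 1.086-fold on chromosome 12 with ethanol, and 1.105-fold and 1.101-fold with tamoxifen. The densest bins have no true counterpart elsewhere, but among bins under 1200 ethanol calls 82 of 88 and 79 of 87 were still above. By blocks of 10 bins the median excess was above 0 in 12 of 12 blocks of chromosome 8 and 11 of 11 of chromosome 12 in each library. The background was 46.9% of blocks with ethanol and 47.3% with tamoxifen. With ethanol the lowest block had a log2 excess of 0.05 on chromosome 8 and 0.03 on chromosome 12, while blocks elsewhere reached 0.10. That block of chromosome 12, 43000001 to 53000000, had 6 of 10 bins above 0. Only 1 bin of chromosome 8 (105000001 to 106000000) and 2 of chromosome 12 (43000001 to 44000000 and 49000001 to 50000000) had no score excess in either library, all 3 within sparse domains. Since score and density chose these chromosomes, these counts describe where the shift lies and test nothing.

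**Figure D3:**
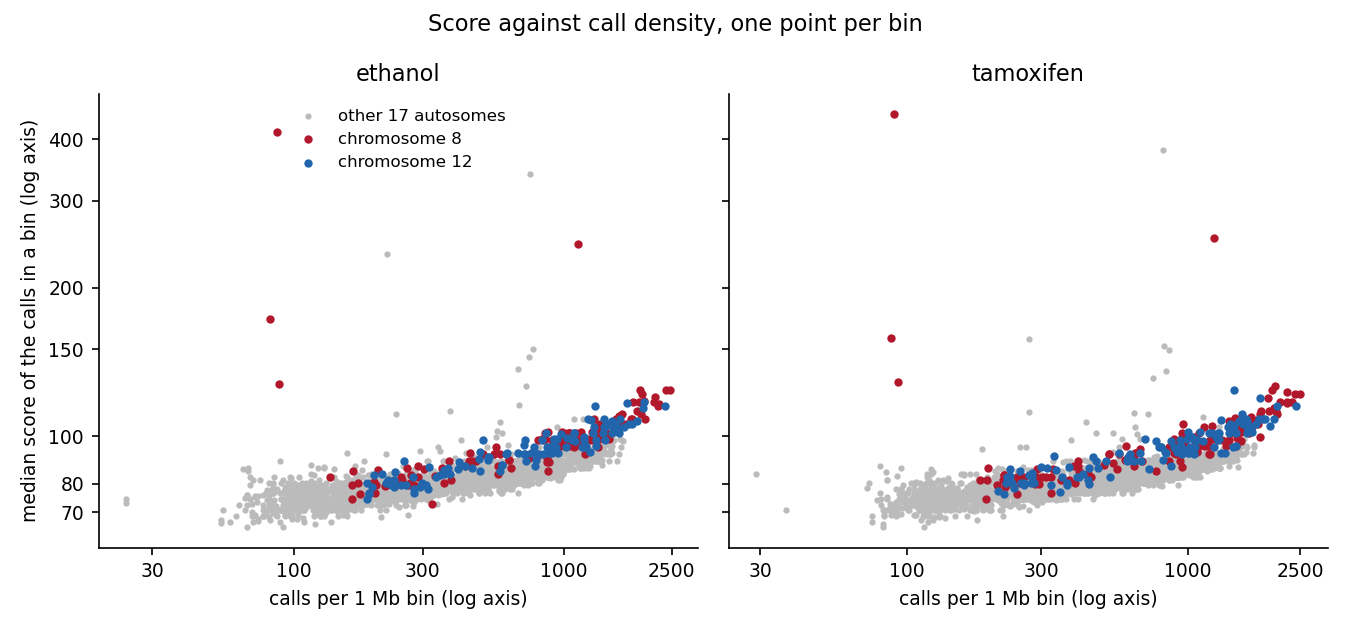
Median score of the calls in each 1 Mb bin against the calls in the bin, both on log axes, for each library. Bins of chromosomes 8 and 12 lie along the upper edge of the grey points of the other 17 autosomes over most of the range and go beyond them above 1655 ethanol calls; at the upper left are the bins of chromosome 8 with few calls of high score.

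Density and score were also joined in a single value, the factor by which the scores of the other autosomes would have to be multiplied to give as many calls per Mb with a score of 150 or more. This score scale factor was 1.84 (interval 1.81 to 1.87) for chromosome 8 and 1.63 (1.63 to 1.63) for chromosome 12 with ethanol, and 1.81 and 1.63 with tamoxifen. Each other autosome, set against the remaining ones, had a factor of 0.83 to 1.21 with ethanol, the highest being chromosome 11, or of 0.86 to 1.18 with tamoxifen. Scores take discrete steps, which limits how fine these intervals can be. When the bins of each chromosome were divided into 4 consecutive parts of like length, the factor on chromosome 8 was 1.87, 1.11, 2.02 and 2.37 from the proximal to the distal end with ethanol, and 1.87, 1.12, 2.02 and 2.30 with tamoxifen. On chromosome 12 it was 1.69, 1.11, 1.69 and 2.02 with ethanol and 1.75, 1.13, 1.69 and 1.99 with tamoxifen. The second stretch was lowest on both chromosomes. It lay within the range of the 68 such stretches of the other autosomes, 0.55 to 1.63 with ethanol, whereas the other 3 lay above it. Of the 68, 18 with ethanol and 16 with tamoxifen reached the factor of the second stretch, for either chromosome. Its median of bin median scores was 88.8 on chromosome 8 and 87.75 on chromosome 12 with ethanol. Of the 68, 2 and 3 reached these scores. A course lowest in the second stretch and highest in the last was also found on some other autosomes, such as chromosomes 2 and 5 with ethanol.

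The pattern was stable between the ethanol and tamoxifen libraries. Across bins the Pearson correlation of log2 calls between the libraries was 0.998 on chromosome 8 (127 bins) and 0.997 on chromosome 12 (118 bins), and 0.996 on the other autosomes; bins of a library share its depth and digest, so these are descriptions. Bin median scores had Spearman correlations of 0.97 and 0.95, against 0.83 elsewhere. Single other autosomes ran from 0.73 (chromosome 3) to 0.93 (chromosome 17). Bins of chromosomes 8 and 12 also hold more calls, and the part this plays in the correlations was not tested. Of the bins past 1.5-fold, 76 of chromosome 8 and 69 of chromosome 12 passed in both libraries, and 1 bin of chromosome 8 passed with tamoxifen alone. Most passing bins elsewhere did so in both libraries as well: 637 in both, 40 with ethanol alone and 6 with tamoxifen alone.

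Scaled to the library totals, the log2 ratio of tamoxifen over ethanol calls per bin had a median of 0.00 and an SD of 0.09 across the bins of chromosome 8, and 0.02 and 0.09 on chromosome 12. On the other autosomes the SD across bins was 0.11 for all together and 0.09 on chromosome 11, the nearest in call density. The tamoxifen calls were 1.1-fold or more higher in 13 bins of chromosome 8 (10.2%) and 20 of chromosome 12 (16.9%). The background was 18.1%, and chromosome 11 had 8.47%. They were lower to the same degree in 1 bin (0.79%) and 2 bins (1.69%), against 2.97%. Neither share was thus above that of the other autosomes together. At 1.2-fold 1 bin of chromosome 8 was higher and none of chromosome 12, against 4.04% elsewhere, and none was lower, against 0.186%. Without calls under the median score, 22 bins of chromosome 8 were 1.1-fold or more higher and 5 lower, against 24.4% and 9.01% elsewhere. The highest ratio on chromosome 8, 0.36 (exact interval 0.03 to 0.69), belonged to the bin from 104000001 to 105000000 with 136 ethanol and 191 tamoxifen calls, and the next, 0.23 (-0.01 to 0.48), to 76000001 to 77000000 with 252 and 325. The lowest was -0.15 (-0.29 to -0.01) at 36000001 to 37000000, with 865 and 853 calls, followed by -0.13 (-0.58 to 0.31) at 57000001 to 58000000, with 88 in each library. On chromosome 12 the highest were 0.23 (0.00 to 0.47) at 116000001 to 117000000, with 277 and 357 calls, and 0.23 (0.06 to 0.40) at 79000001 to 80000000, with 484 and 622. Its lowest were -0.15 (-0.42 to 0.12) at 63000001 to 64000000, with 229 and 226 calls, and -0.14 (-0.41 to 0.12) at 64000001 to 65000000, with 235 and 233. These bins were picked as extremes, and their intervals do not allow for that.

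As elsewhere, the ratio was lower in dense than in sparse bins. In bins of 1200 ethanol calls or more it was -0.05 (-0.07 to -0.04) on chromosome 8 and -0.04 (-0.06 to -0.02) on chromosome 12, and the other autosomes stood at -0.08 (-0.09 to -0.07). In bins of 400 to under 800 calls it was 0.06 (0.01 to 0.10) and 0.07 (0.04 to 0.10), against 0.01 (0.01 to 0.02). In bins under 200 calls it was 0.09 (-0.003 to 0.19) and 0.12 (0.01 to 0.23), against 0.12 (0.11 to 0.14). Bins of like density on chromosomes 8 and 12 were thus slightly richer in tamoxifen calls than the rest in these denser classes, though the intervals overlapped for chromosome 8 at 400 to under 800 calls. In the sparsest class no difference was detectable. Nor was one in bins of 200 to under 400 calls, with 0.08 (0.03 to 0.12) and 0.10 (0.05 to 0.14) against 0.07 (0.06 to 0.08). The classes rest on ethanol calls, which also enter the ratio.

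**Figure D4:**
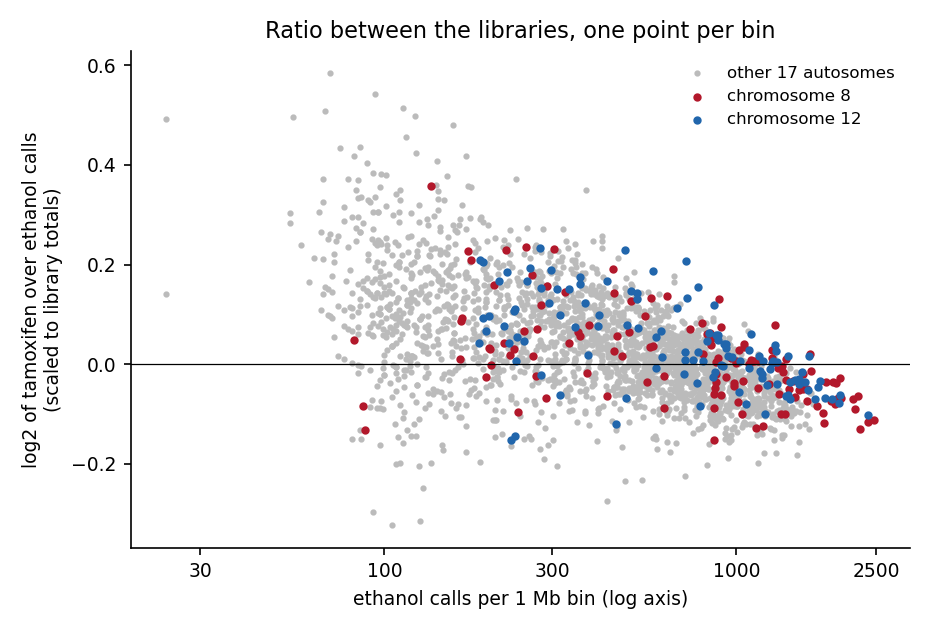
Log2 ratio of tamoxifen over ethanol calls, scaled to the library totals, against the ethanol calls of each 1 Mb bin (log axis). Bins of chromosomes 8 and 12 run from -0.15 to 0.36 and follow the downward course of the grey points, the bins of the other 17 autosomes.

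Whether positions recurred between the libraries was not used in choosing the chromosomes, though it is tied to density and score. Of the ethanol calls, 50.5% (Wilson interval 50.3 to 50.8%) on chromosome 8 and 50.09% (49.8 to 50.4%) on chromosome 12 had a tamoxifen call within 20 bp. On the other autosomes together 43.2% (43.1 to 43.3%) did. Displacing the ethanol calls by 1000 to 10000 bp left 6.81% on chromosome 8, 6.14% on chromosome 12 and 2.90 to 4.59% on single other autosomes. The share above the displaced share was therefore 43.7 and 43.9 percentage points, against 38.6 to 40.1 points on the other autosomes one by one. Sharing was raised along the whole length. All 12 blocks of 10 bins of chromosome 8 (47.5 to 53.5%) and all 11 of chromosome 12 (46.6 to 51.2%) were above the 90th percentile of the blocks elsewhere, 44.3%, which 10.1% of those 207 blocks exceeded. The lowest blocks were 34000001 to 44000000 on chromosome 8 and 43000001 to 53000000 on chromosome 12, the latter also the sparsest block of its chromosome.

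Like density did not remove the difference, while like score reduced it. In bins of 800 to under 1200 ethanol calls 50.6% of calls were shared on chromosome 8 and 50.7% on chromosome 12, against 43.8% elsewhere, and in bins under 200 calls 48.2% and 46.3% against 39.2%. Among ethanol calls scored below 65 the shares were 32.8% on both against 28.0%, and among those scored 130 or more 65.5% on both against 63.9%. After displacement the calls scored 130 or more gave 7.57, 6.75 and 4.43%, so for these calls the share above the displaced one was lower on chromosomes 8 and 12 (57.9 and 58.7 points) than elsewhere (59.5 points). Weighting the other autosomes to the score and density classes of chromosome 8 raised their share from 43.2% to 46.7%, against 50.6% on chromosome 8. The same for chromosome 12 gave 46.0%, against 50.104%. For the tamoxifen calls, the gaps left were smaller, with 44.7% against 46.9% on chromosome 8 and 43.9% against 45.5% on chromosome 12. Part of each gap lies in the displaced shares. With ethanol the weighted ones were 5.66% against 6.83% on chromosome 8 and 5.33% against 6.15% on chromosome 12. With tamoxifen they were 5.37% against 6.33% and 5.02% against 5.62%. The highest density class is open-ended, and chromosomes 8 and 12 hold the densest bins in it.

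**Figure D5:**
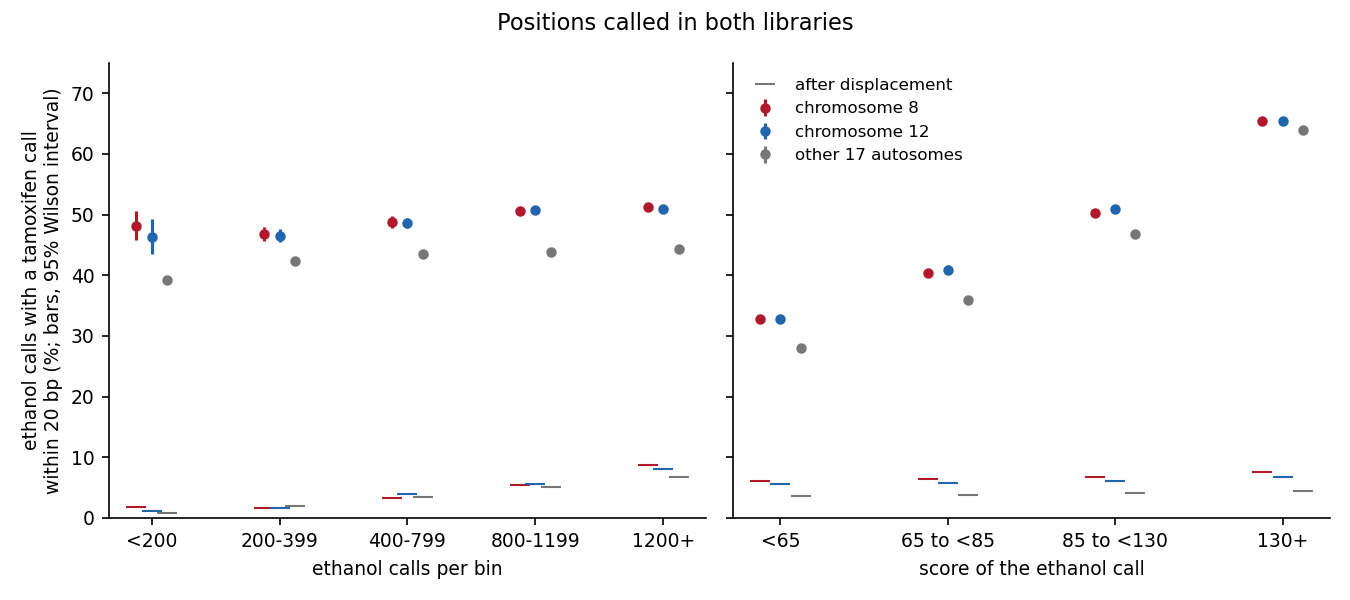
Share of the ethanol list with a tamoxifen partner no more than 20 bp away, in percent with 95% Wilson intervals, by ethanol calls per 1 Mb bin and by score of the call; short bars are the shares after displacement. Chromosomes 8 and 12 lie above the other 17 autosomes in all 5 density classes and all 4 score classes, by the least among calls scored 130 or more.

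Calls lay closer together than elsewhere, though at 800 to under 1200 calls per bin the share of close neighbours came near that of the other autosomes. The median distance from a call to the next was 515 bp on chromosome 8 and 575 bp on chromosome 12 with ethanol, against 755 to 1257.5 bp on single other autosomes. Neighbours 140 to 400 bp apart made up 39.9% (39.6 to 40.2%) and 36.2% (35.9 to 36.5%) of successive calls, against 18.96 to 29.0%, and 41.3% and 38.1% with tamoxifen. In bins of 800 to under 1200 ethanol calls, however, the shares were 32.7% and 32.7% against 31.9%, and with tamoxifen 34.2% and 35.2% against 33.0%. In bins of 1200 ethanol calls or more they were 49.8% and 46.6% against 41.3%, where chromosomes 8 and 12 also hold the densest bins. The periodicity contrast sets pairs of calls 350 to 410 bp apart, about 2 nucleosome repeats, over pairs 260 to 320 bp apart. It was 1.42 (1.38 to 1.46) on chromosome 8 and 1.38 (1.34 to 1.42) on chromosome 12 with ethanol, within the 1.33 to 1.45 of the other autosomes. With tamoxifen it was 1.57 (1.53 to 1.61) and 1.52 (1.478 to 1.56), within 1.42 to 1.62. Pairs share calls, so these intervals are too narrow. Calls averaged 110.9 bp wide on chromosome 8 and 111.4 bp on chromosome 12 with ethanol (SD across calls 29.7 bp for each), below the 111.9 to 113.6 bp of the other autosomes. In bins of 800 to under 1200 calls the widths were 112.2 bp on both chromosomes against 111.6 bp elsewhere, so the order turned in that class. In bins of 1200 calls or more they were 109.5 and 110.04 bp against 110.1 bp.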

How the data were processed

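MNase-seq of 2 libraries was used, grouped by sample title. The submitters' processing notes name Bowtie 0.12.9 and mm9. How nucleosomes were called, with which cutoffs, and what the score means is not given in the sources used here. Each library came as a deposited list of nucleosome calls, each with a score whose scale the authors do not state. All starts and ends, used as deposited, lie on a 10 bp grid. Read depth is unknown.

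The chromosomes, measures and lists were chosen with earlier results of these data known. Calls were placed by centre in bins of 1 Mb. Segments are a least-squares fit of log2 calls plus 1 per bin, or of log2 bin median score (minimum 5 bins, penalty factor 3). Intervals are exact Poisson, exact Clopper-Pearson for ratios between libraries, Wilson for shares, and normal on the log scale for the periodicity contrast. For the comparison of settings only, relative scores had order-statistic intervals over bins, and shares of bins had exact binomial ones. The bins named are the 3 richest and poorest in ethanol calls, the extreme ratios, the longest sparse runs and, chosen after their values were seen, bins of high score. No test was made. Procedures were tested on simulated data. Other bin sizes, score limits, folds and baselines were tried. Software was matplotlib 3.10.9, scipy 1.17.1, pandas 2.3.3 and numpy 2.4.6 under Python 3.11.15.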

Additional observations from a re-analysis of the deposited data

How the results depend on the processing

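No paired analysis was possible because a single library stood for each treatment, and for the same reason no replicate could be left out. Of the recomputed values 76 stayed within the counting interval of the value reported or, for counts, within 1.5 times it, 62 moved and 2 reversed. The relative scores and the shares of bins with a score above bins of like density stayed under every alternative run for them, including those chosen after the data had been seen (fewer or more nearest bins, bins under 1200 calls, high-scoring bins left out).

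The values below are given for chromosome 8 with ethanol and tamoxifen, then chromosome 12 with ethanol and tamoxifen. Relative call density rose to 2.60, 2.58, 2.22 and 2.30 when calls under the median score were dropped, and fell to 1.86, 1.83, 1.69 and 1.69 for total calls over total length. In bins of 2 Mb it was 1.99 on chromosome 12 with ethanol. The bins past 2-fold made up 48.0% of chromosome 8 with tamoxifen and 46.6% and 44.9% of chromosome 12, against 16.5% elsewhere with ethanol and 13.5% with tamoxifen. A penalty factor of 6 or segments of at least 10 bins left 7 segments on chromosome 8, and the latter 5 on chromosome 12, in each library. With 20 bins either side the largest step on chromosome 8 reversed to 1.76 and 1.73, because another border, a rise, then ranked first; on chromosome 12 it was 1.72 and 1.62. The score scale factor was 1.88, 1.86, 1.67 and 1.67 at a limit of 100, 1.80, 1.76, 1.58 and 1.61 at 200, and 1.79, 1.77, 1.55 and 1.58 at 300.

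Bins past the fold between libraries, higher with tamoxifen, numbered 22 of 127 on chromosome 8 without calls under the median score (24.4% elsewhere), and 1 and 0 on chromosomes 8 and 12 at 1.2-fold (4.04%). Lower ones numbered 5 and 1 without them (9.01%) and 0 and 0 at 1.2-fold (0.186%). The share of ethanol calls with a partner was 35.0% and 34.4% within 10 bp, 64.6% and 64.3% within 40 bp, and 46.2% and 45.7% after thinning the tamoxifen list, which removes partners by construction. Its difference from the other autosomes, 7.32 and 6.87 points, became 5.21 and 4.67, 9.06 and 8.75, and 6.75 and 6.31. Without calls under the median score, the contrast over that of the other autosomes was 1.07 and 1.05 on chromosome 8. On chromosome 12 it was 1.09 with ethanol but 0.998 with tamoxifen, the latter within the interval of the value reported. Neighbour shares were then 29.4, 30.1, 25.3 and 26.5%, and widths 114.5, 114.6, 115.3 and 115.3 bp. For the other shifts the cause was not tested.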
